A study of Homo sapiens with 6 samples.

Results

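The zinc finger genes of chromosome 19 were examined for acetylation of histone H3 at lysine 27 (H3K27ac), a chromatin mark of active promoters and enhancers, in T-cell acute lymphoblastic leukaemia lines. Members were all protein-coding genes of the chromosome whose symbol is ZNF followed by a number, with or without a letter, and they numbered 246 of 19974 protein-coding genes on chromosomes 1 to 22 and X. The rule used no measured value, though earlier results of these data were known when it was set. Jurkat, a T-cell leukaemia line, had 2 H3K27ac libraries, and 6T-CEM, a derivative of the T-cell leukaemia line CEM, had 1. GNE-987, a compound that blocks BET bromodomain proteins, is the subject of the series, whose description speaks of exposure to 10 nM for 24 h, but the label of no sample states whether it was treated, so any of the 3 libraries may come from treated or untreated cells. The labels also do not say that the Jurkat replicates came from separate cultures. Differences between them therefore measure only the spread between these libraries, and with 1 library in 6T-CEM no test between the lines was possible.

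Most of these genes encode proteins with a tandem array of C2H2 zinc fingers that read DNA, and many carry an amino-terminal KRAB domain. KRAB zinc finger proteins bind retroelements and other sequences and recruit the corepressor TRIM28 (KAP1), which brings the histone methyltransferase SETDB1 and HP1 proteins to form silent chromatin. The family grew by tandem duplication, so its members lie in gene clusters along the chromosome with near neighbours that are close copies. Cluster bodies are known to carry heterochromatin marks in many cell types, while individual promoters can be open.

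Each library was deposited as a peak list without read counts, so depth is unknown. Only peaks on the autosomes and chromosome X, as for the genes, were kept, so the full lists may be longer. Jurkat replicate 1 then had a list of 16159 peaks, Jurkat replicate 2 one of 32097 and 6T-CEM one of 35154. Values given in a row keep this order. A gene was called marked where a peak shared at least 1 base with the 1 kb on either side of an annotated gene end. T-cell markers (CD2, CD3D, CD3E, CD3G, CD5, CD7 and LCK) were marked in 5, 7 and 6 of 7 cases. Among the 4 myeloid markers CSF1R alone was marked, in Jurkat replicate 2 and 6T-CEM, and no erythroid marker of 4 was marked.

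More members were marked in 6T-CEM than in either Jurkat library. In Jurkat replicate 1, 92 members (37.4%) were marked, against a background of 37.9% of all protein-coding genes. Jurkat replicate 2 marked 71 members (28.9%), against 34.0% of all genes. The 6T-CEM library marked 130 members (52.8%), against 41.3% of all genes. The members were thus near the background in Jurkat replicate 1, below it in Jurkat replicate 2 and above it in 6T-CEM. The other 1205 protein-coding genes of chromosome 19 showed no such step, at 40.2%, 46.0% and 44.8%. The 263 ZNF genes of other chromosomes were marked more often than the members in every library, at 55.1%, 45.2% and 55.9%. The order of the libraries depended on the length of the lists: with each list reduced to its 16159 peaks of lowest q, 92, 47 and 73 members were marked (37.4%, 19.1% and 29.7%), against 37.9%, 24.3% and 27.2% of all genes.

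**Figure D1:**
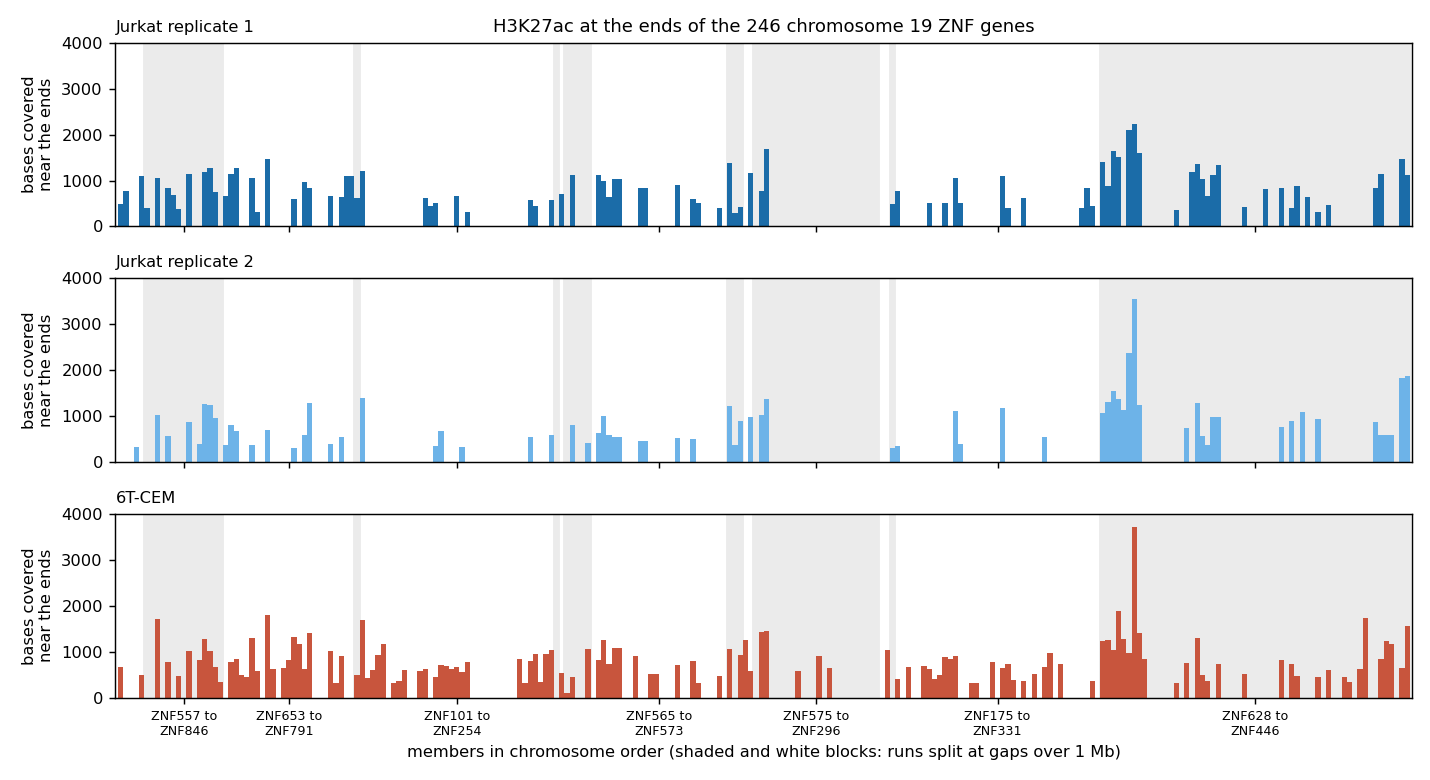
Bases covered by H3K27ac peaks within 1 kb of the gene ends (y axis, bases) for each of the 246 members in chromosome order (x axis), 1 panel per library. Shaded and white blocks are runs of neighbouring members split at gaps over 1 Mb. Covered members numbered 92 in Jurkat replicate 1, 71 in Jurkat replicate 2 and 130 in 6T-CEM.

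Marked stretches at members, as at other ZNF genes, were shorter than at genes in general. A marked member had a median of 827, 749 and 723.5 covered bases near its ends, against 999, 870 and 966 for all marked genes and 834, 737 and 830 for marked ZNF genes of other chromosomes. The authors' fold enrichment at the strongest peak of a marked member had a median of 5.60, 3.91 and 4.63, against 5.73, 4.53 and 4.66 over all marked genes. The highest fold in Jurkat replicate 1 was 13.4 at ZNF121, in Jurkat replicate 2 it was 9.96 at ZNF780A, and in 6T-CEM it was 10.3 at ZNF93. A different gene led each list. These folds and their q-values are the authors' own and describe peaks within 1 list only. Distinct peaks behind the member calls numbered 95, 76 and 133, of which 4, 5 and 5 lay at the ends of more than 1 member.

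The pattern over the 3 libraries set the members apart from the background mainly in 6T-CEM. Peaks in all 3 libraries were found at 52 members (21.1%), against 26.2% of all genes. Peaks in 6T-CEM and in neither Jurkat library were found at 48 members (19.5%), against 6.47% of all genes, 4.98% of the other genes of chromosome 19 and 6.84% of ZNF genes elsewhere. Peaks in both Jurkat libraries and not in 6T-CEM were found at 8 members (3.25%), against 2.42% of all genes. The last 2 counts are not mirror images, because one asks for a peak in 1 library and the other for a peak in 2. With lists of equal length, 25 members (10.2%) had a peak in 6T-CEM alone, against 3.67% of all genes, and 21 of them were among the 48. Jurkat replicate 1 and 6T-CEM without Jurkat replicate 2 marked 21 members (8.54%, against 5.57%), and Jurkat replicate 2 and 6T-CEM without Jurkat replicate 1 marked 9 (3.66%, against 3.07%). At least 1 library marked 151 members (61.4%), against 49.7% of all genes, and no library marked 95 (38.6%), against 50.3%.

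**Figure D2:**
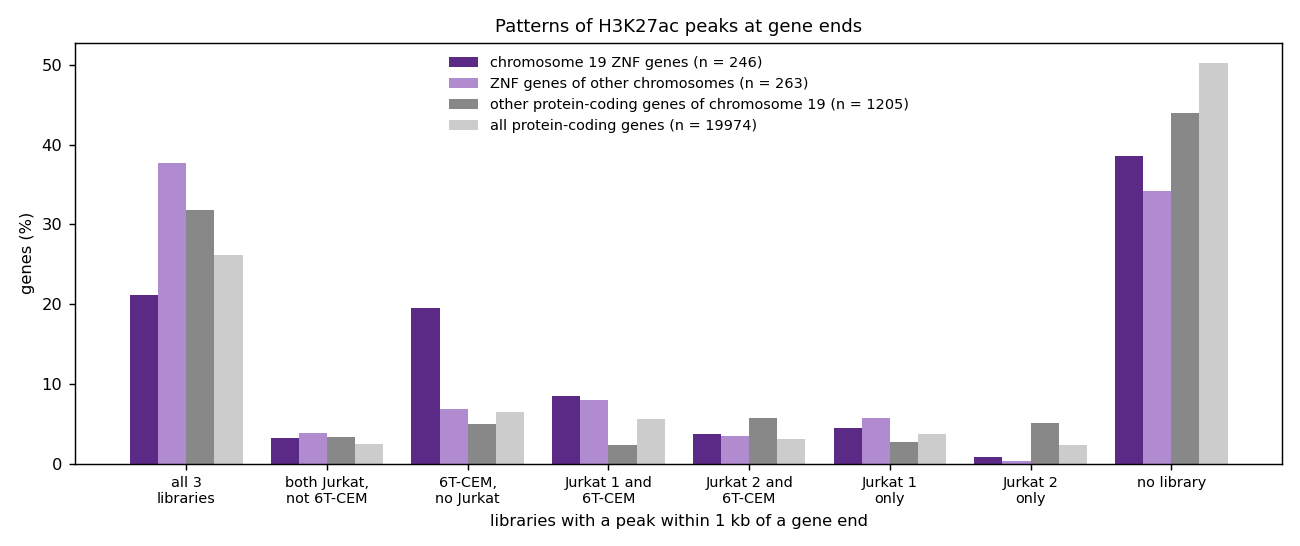
Share of genes (y axis, %) with each combination of libraries showing a peak within 1 kb of a gene end (x axis), for the members, ZNF genes of other chromosomes, other genes of chromosome 19 and all protein-coding genes. The 6T-CEM pattern without Jurkat holds 19.5% of members and 6.47% of all genes.

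The promoters of representative members are shown to set their marks beside their letters. Each is the 250 bases before the RefSeq start on GRCh38.p14, the same build as hg38, written 5′ to 3′ on the gene's own strand. Capitals mark CCGGAA or its reverse TTCCGG, the core letters read by ETS factors, and 2 words of 9 letters common among the members, CTGTCACTC and GTCCAATCA. Marked in all libraries, ZNF580 lies on the plus strand with its promoter at chr19:55640752-55641001.
ZNF580: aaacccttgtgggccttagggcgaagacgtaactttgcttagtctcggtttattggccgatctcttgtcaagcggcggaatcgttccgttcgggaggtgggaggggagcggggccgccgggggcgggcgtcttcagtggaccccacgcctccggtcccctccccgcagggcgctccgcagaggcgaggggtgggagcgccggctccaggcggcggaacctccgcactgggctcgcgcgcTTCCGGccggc
Marked in both Jurkat libraries and not in 6T-CEM, ZNF547 has its promoter at chr19:57363301-57363550, plus strand.
ZNF547: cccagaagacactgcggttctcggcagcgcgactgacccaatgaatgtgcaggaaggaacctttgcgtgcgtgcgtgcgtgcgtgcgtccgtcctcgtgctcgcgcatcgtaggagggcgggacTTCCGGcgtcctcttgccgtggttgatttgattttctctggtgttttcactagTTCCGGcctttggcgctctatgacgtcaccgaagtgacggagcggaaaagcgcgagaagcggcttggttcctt
Marked in 6T-CEM alone, ZNF544 has its promoter at chr19:58228664-58228913 and ZNF574 at chr19:42068227-42068476, both on the plus strand.
ZNF544: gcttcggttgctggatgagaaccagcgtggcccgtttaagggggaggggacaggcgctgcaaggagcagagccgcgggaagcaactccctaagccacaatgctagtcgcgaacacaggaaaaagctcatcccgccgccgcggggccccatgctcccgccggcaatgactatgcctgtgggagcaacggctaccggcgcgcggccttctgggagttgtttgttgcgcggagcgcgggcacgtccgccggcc
ZNF574: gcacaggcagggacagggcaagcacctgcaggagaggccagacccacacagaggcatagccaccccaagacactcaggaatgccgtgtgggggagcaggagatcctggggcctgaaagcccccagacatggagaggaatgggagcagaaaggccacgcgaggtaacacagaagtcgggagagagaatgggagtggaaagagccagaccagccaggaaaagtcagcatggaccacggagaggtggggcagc
The last 3 lie in the gene cluster between ZNF101 and ZNF254. They are ZNF93 (chr19:19900696-19900945, plus strand), marked in 6T-CEM alone, ZNF208 (chr19:22010944-22011193, minus strand), marked in no library, and ZNF91 (chr19:23395472-23395721, minus strand), marked in all.
ZNF93: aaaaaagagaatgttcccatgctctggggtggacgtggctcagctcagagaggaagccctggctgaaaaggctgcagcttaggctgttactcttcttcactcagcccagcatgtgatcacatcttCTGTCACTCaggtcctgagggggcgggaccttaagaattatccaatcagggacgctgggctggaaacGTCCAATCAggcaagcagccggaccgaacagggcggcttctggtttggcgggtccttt
ZNF208: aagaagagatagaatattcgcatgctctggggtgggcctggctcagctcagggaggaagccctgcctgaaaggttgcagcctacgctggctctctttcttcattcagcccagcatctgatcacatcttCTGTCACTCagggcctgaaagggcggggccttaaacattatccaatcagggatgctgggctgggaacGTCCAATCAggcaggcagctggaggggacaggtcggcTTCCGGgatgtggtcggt
ZNF91: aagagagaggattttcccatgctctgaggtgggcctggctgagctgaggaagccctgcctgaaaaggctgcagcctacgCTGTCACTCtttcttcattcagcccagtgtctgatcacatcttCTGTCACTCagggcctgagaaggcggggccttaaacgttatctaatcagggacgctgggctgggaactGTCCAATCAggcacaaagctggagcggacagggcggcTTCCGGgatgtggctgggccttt

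Promoters of similar sequence carried different marks. The promoters of ZNF208 and ZNF91 were 86.4% identical in a global alignment, those of ZNF93 and ZNF91 83.1%, and those of ZNF93 and ZNF208 82.5%, while every other pair of the 7 lay between 46.8% and 52.8%. ZNF91, whose protein represses SVA retrotransposons, had 580, 553 and 797 covered bases, and 580, none and 797 with lists of equal length. ZNF93 had none, none and 1163, and ZNF208 had none in any list. All 3 promoters held both 9-letter words in the same order, and ZNF208 and ZNF91 also held the ETS letters, which ZNF93 lacked. ZNF91 was shown because its role is known and after its values were seen. How reads from such close copies were aligned is not stated in the labels, so values at close copies are uncertain.

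The Jurkat libraries also disagreed on many members. Their calls differed at 43 members (17.5%), against 14.7% of all genes. Jurkat replicate 1 and 6T-CEM differed at 76 members (30.9%, against 15.7%), and Jurkat replicate 2 and 6T-CEM at 79 (32.1%, against 16.8%). With lists of equal length the 3 counts were 53, 75 and 50 (21.5%, 30.5% and 20.3%), against 18.6%, 20.2% and 15.6% of all genes. Jurkat replicate 2 then differed less from 6T-CEM than from its own replicate, over the members as over all genes. Of the members marked in Jurkat replicate 1, 60 (65.2%) were marked in replicate 2, and these made up 84.5% of those in replicate 2. Over all genes the same shares were 75.5% and 84.1%.

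Peaks lay at the transcription start and rarely at the other end. The strand was known for 216 members, and 86, 66 and 113 of them had a peak within 1 kb of the start end (39.8%, 30.6% and 52.3%), against 38.9%, 32.4% and 40.4% of all genes with a strand. A peak within 1 kb of the far end was found at 4, 8 and 8 members (1.85%, 3.70% and 3.70%), against 4.52%, 8.74% and 9.15%. The 4 in Jurkat replicate 1 were ZNF628, ZNF581, ZNF580 and ZNF324, each of which had a start peak too. Of the 8 in Jurkat replicate 2, 6 had a start peak too, and of the 8 in 6T-CEM, 3 had one. Among these members with a far-end peak, 2, 4 and 4 had an end of another gene in their windows. ZNF580 is only 2.469 kb long, the shortest of the members, so 1 peak can reach both of its ends.

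Summits fell just inside the transcribed side of the start. For 187 members the RefSeq start lay within 1 kb of the annotated end, and 82, 62 and 105 of these starts had a peak within 1 kb. The summit lay a median of 154.5, 166 and 208 bases downstream of the start, with 74.4%, 80.6% and 81.9% of summits downstream. Over all genes the shares downstream were 69.6%, 71.9% and 73.1%. Coverage over the members was highest 166, 170 and 208 bases downstream, where 42.8%, 29.9% and 51.9% of the starts lay under a peak, against highest values of 35.7%, 26.1% and 34.3% over all genes.

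**Figure D3:**
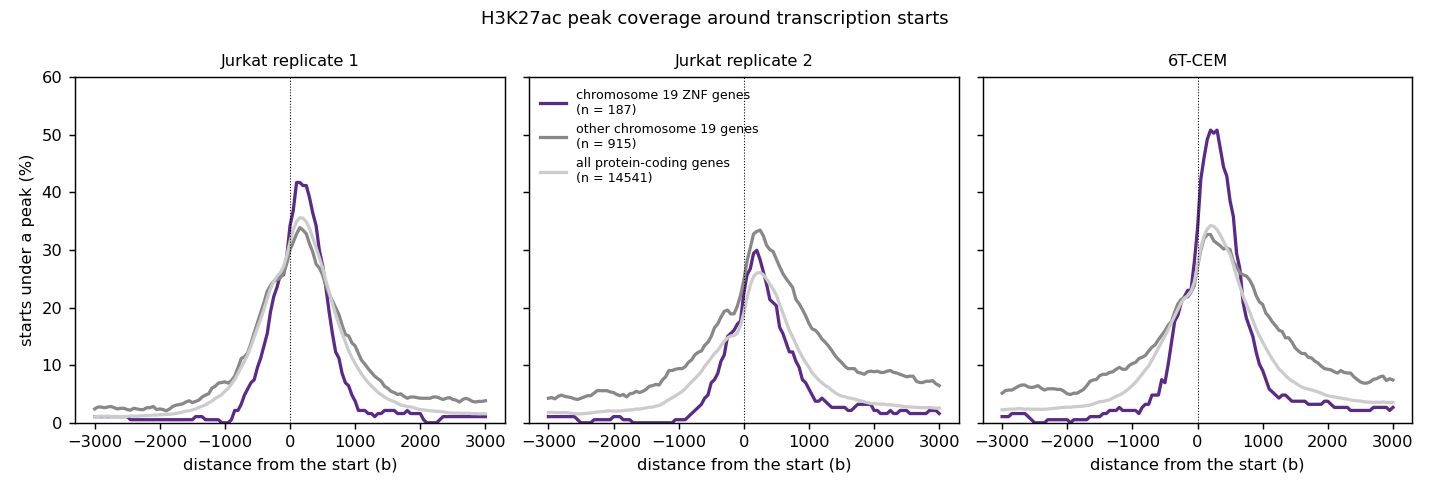
Share of transcription starts lying under an H3K27ac peak (y axis, %) by distance from the start in bases, positive downstream (x axis), 1 panel per library, for 187 members, other genes of chromosome 19 and all protein-coding genes. Points are drawn every 50 bases, and the highest single base of the members stands at 51.9% in 6T-CEM and 29.9% in Jurkat replicate 2.

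Members marked most widely in all libraries were led by ZNF580, a small C2H2 protein gene. It had 2223, 3558 and 3713 covered bases, and it lies inside the annotated span of ZNF581, which had 2093, 2382 and 962 near its own ends. ZNF428 had 1683, 1373 and 1454 covered bases. ZNF865 had 1507, 1370 and 1878. Its neighbourhood was marked as a block: ZNF628, ZNF579, ZNF524 and ZNF865 are adjacent members that were each marked in all 3 libraries. ZNF460 had 1363, 1294 and 1302 covered bases, the closest agreement among these leaders. ZNF787 had 1605, 1252 and 1399. ZNF101 had 1208, 1404 and 1680. ZNF580, ZNF428, ZNF865, ZNF460, ZNF787 and ZNF101 each had more than 1000 covered bases in each library. ZNF121, with the highest fold of any member in Jurkat replicate 1, had 1176, 1254 and 1278 covered bases. ZNF446, which encodes a protein with SCAN and KRAB domains, had 1110, 1867 and 1562. ZNF628 had 1397, 1058 and 1229, and ZNF546 had 1374, 1217 and 1051. At equal list length ZNF865 had 1507, 903 and no covered bases, which ends its call in 6T-CEM and breaks the block of 4, and the other 9 of these 10 leaders stayed marked in every library. The end windows of ZNF446 and ZNF628 hold an end of another gene as well, as do those of 43 members in all.

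A longer block of members marked in every library ran from ZNF146 through ZNF566, ZNF260 and ZNF529 to ZNF382. ZNF146 is a gene of zinc fingers without a KRAB domain, and had 1116, 639 and 826 covered bases. ZNF566 had 985, 1005 and 1263, and ZNF260 had 641, 588 and 723. ZNF529 and ZNF382 lie head to head over 1 peak and both had 1023, 546 and 1069 covered bases. All 5 had at least 546 covered bases in each library as deposited. When the lists were cut to equal length, ZNF566 and ZNF260 kept a peak in each, ZNF146 had none in 6T-CEM, and ZNF529 and ZNF382 had one in Jurkat replicate 1 alone.

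The members marked in 6T-CEM alone had lower medians than those marked everywhere. Their peaks in 6T-CEM had a median fold of 4.33, a median −log10 q of 7.56 and a median of 609.5 covered bases. The members marked in all libraries had medians of 4.88, 11.8 and 941.5 in the same library. All genes showed the same step, so it is not particular to the members. Their medians were 4.03, 7.96 and 620 where marked in 6T-CEM alone, against 5.04, 14.1 and 1131 where marked in all libraries. At the 48 members marked in 6T-CEM alone, covered bases ranged from 93 at ZNF302 to 1724 at ZNF544. An end of another gene lay in the windows of 7 of the 48. The windows of all 48 were empty in both Jurkat lists by the rule, and 5 of them (ZNF846, ZNF302, ZNF574, ZNF114 and ZNF444) had a Jurkat peak further inside the gene.

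Several of the 6T-CEM genes were among the strongest peaks of the family in that library. ZNF93, whose protein represses LINE-1 retrotransposons, had 1163 covered bases at a fold of 10.3 and a −log10 q of 33.5. ZNF114 had 1045 covered bases at a fold of 10.2. ZNF726 had 959 covered bases at a fold of 9.37. Each of these was absent from both Jurkat lists at its ends. ZNF625 had 1159 covered bases at a fold of 8.14. ZNF544 had 1724 at 7.32, the widest of the group. ZNF574 had 1264 at 6.18, and unlike the others it carried body peaks in all libraries, covering 1503, 2407 and 3128 bases. ZNF253 had 930 covered bases at a fold of 6.10, and ZNF415 had 969 at 4.64. With lists of equal length, 7 of these 8 stayed marked in 6T-CEM alone and ZNF415 had no peak in any list.

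Only 8 members showed the opposite pattern, being marked in each Jurkat library while 6T-CEM had no peak near the ends. ZNF790, one of them, had a body peak of 784 bases in 6T-CEM. ZNF547 had 1120 and 991 covered bases in the Jurkat replicates. ZNF497 had 830 and 869. ZNF345 and ZNF790 shared 1 peak between their heads, with 846 and 466 covered bases at each. ZNF480 had 511 and 391. These stretches were shorter in replicate 2 than in replicate 1 except at ZNF497. ZNF653 had 668 and 367 covered bases, ZNF780B had 304 and 361, and ZNF473, whose protein works in the processing of histone messenger RNA, had 487 and 296. The end windows of 6 of the 8 also hold an end of another gene. With lists of equal length, ZNF547, ZNF497, ZNF480 and ZNF780B kept the pattern, and the other 4 had a peak in Jurkat replicate 1 alone.

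Members marked in 1 Jurkat library and not the other included wide peaks. ZNF805 had 1181 covered bases in replicate 1 and none in the other lists. ZNF490, which shares its peak with ZNF791, had 1092 in replicate 1 and none elsewhere. ZNF77 had 1096 in replicate 1 and 501 in 6T-CEM. The reverse cases were mostly shared with 6T-CEM. ZNF784 had 1127 covered bases in replicate 2 and 1275 in 6T-CEM, in both near its far end and not its start. ZNF264 had 749 and 746. ZNF586 had 1087 in replicate 2 alone. Replicate 1 alone marked 11 members (4.47%, against 3.70% of all genes), and replicate 2 alone marked 2 (0.813%, against 2.32%), ZNF57 and ZNF586.

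Split at gaps of more than 1 Mb, the members fell into 16 runs, of which 7 held 10 or more members and 225 members between them. Members marked in 6T-CEM alone were spread unevenly over the runs. The run from ZNF101 to ZNF254, at chr19:19668153-24129968 (hg38), held 37 members and only 2 other protein-coding genes. It had 9, 6 and 24 marked members (24.3%, 16.2% and 64.9%), of which 14 were marked in 6T-CEM alone and 12 in no library. The run from ZNF175 to ZNF331, with 39 members, had 11, 5 and 21 marked, 12 of them in 6T-CEM alone. Together these 2 runs held 26 of the 48 members marked in 6T-CEM alone. With lists of equal length the first run had 9, 3 and 14 marked members and 8 in 6T-CEM alone, and the second had 11, 4 and 8 marked and 4 in 6T-CEM alone, so the second no longer had most marked members in 6T-CEM.

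As deposited, the counts of the remaining large runs lay closer together. The run from ZNF628 to ZNF446, the largest with 59 members, had 26, 24 and 30 marked and 17 marked in all libraries. The run from ZNF653 to ZNF791, with 25 members, had 13, 10 and 17 marked, 7 in 6T-CEM alone. ZNF557 to ZNF846, with 15 members, had 9, 7 and 9 marked, and ZNF565 to ZNF573, with 26, had 11, 9 and 12. At equal list length ZNF565 to ZNF573 had 11, 4 and 4 marked, ZNF653 to ZNF791 had 13, 6 and 11, ZNF557 to ZNF846 had 9, 5 and 6, and ZNF628 to ZNF446 had 26, 17 and 18, so these runs then had most marked members in Jurkat replicate 1. The run from ZNF575 to ZNF296 stood lowest, with 2, 2 and 5 of 24 members marked and 19 in no library. Peaks were not missing from that interval: its 27 other genes included 7, 10 and 8 marked ones. Outside the run from ZNF101 to ZNF254, 83, 65 and 106 of the remaining 209 members were marked and 34 (16.3%) were marked in 6T-CEM alone.

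**Figure D4:**
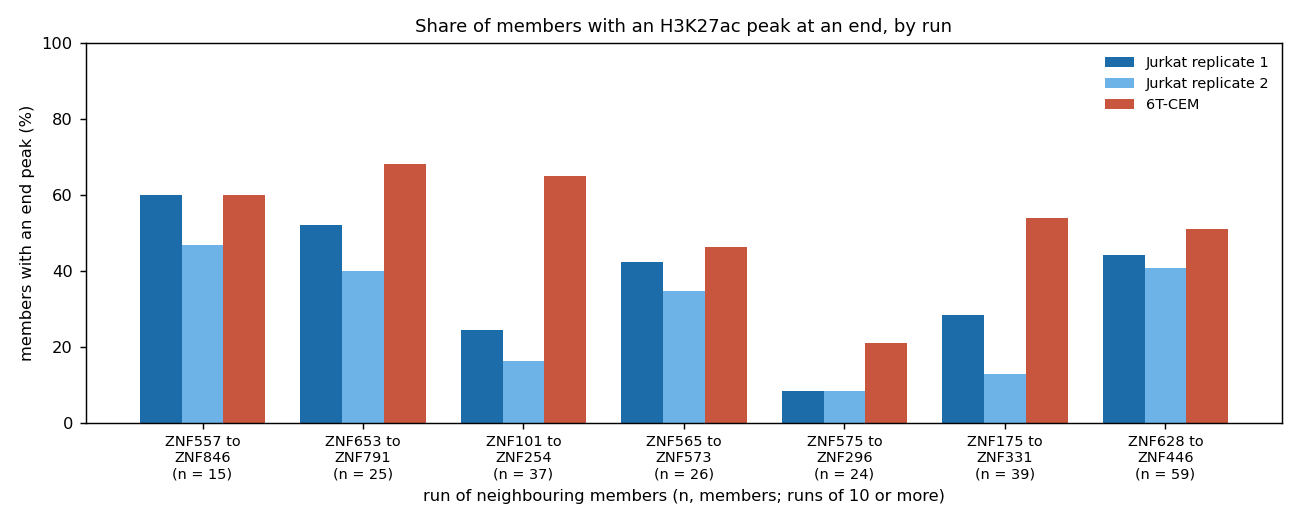
Share of members with an H3K27ac peak within 1 kb of an end (y axis, %) in the 7 runs of 10 or more neighbouring members (x axis, with the number of members), 1 bar per library. The run from ZNF101 to ZNF254 stands at 64.9% in 6T-CEM against 24.3% and 16.2% in the Jurkat libraries.

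Unmarked neighbours formed long stretches. From ZNF208 to ZNF728, 9 consecutive members (ZNF208, ZNF257, ZNF676, ZNF729, ZNF98, ZNF492, ZNF99, ZNF723 and ZNF728) spanned 1.06 Mb without a single peak in any of the 3 lists, gene bodies and the space between genes included. Another 9, from ZNF226 to ZNF296, were unmarked over 0.911 Mb, but 6, 14 and 12 peaks lay elsewhere in that stretch. Much of that span is the gap between ZNF180, which ends at chr19:44500522, and ZNF296, which begins at chr19:45071500. ZNF283 to ZNF155 and ZNF582 to ZNF470 were stretches of 5 members each, also with no peak of any list. By contrast ZNF14, ZNF506, ZNF253 and ZNF93, 4 neighbours spanning 0.225 Mb, were marked in 6T-CEM alone, and the stretch held no Jurkat peak at all and 4 peaks in 6T-CEM, 1 per gene.

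The 2 words set in capitals in the promoters shown were the 9-letter strings found in most member promoters among those present in at most 1% of all promoters, counted on both strands over 300 bases (250 before to 50 after the start). CTGTCACTC was in 33 of 187 member promoters (17.6%), in 0.839% of all 14541 promoters, in 0.765% of other chromosome 19 promoters and in 6.74% of promoters of ZNF genes elsewhere. GTCCAATCA, which contains CCAAT, was in 31 (16.6%), against 0.626%, 0.219% and 6.22%. Where present, CTGTCACTC lay on the gene's own strand in all 33, at a median of 125 bases before the start, and GTCCAATCA in 30 of 31, at a median of 59 bases before it. Both were chosen by their count in these members, so the contrast with other genes is a description.

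The words were tied to place. In the run from ZNF101 to ZNF254, 24 of 25 promoters held at least 1 of them and 20 held both, with ZNF708 the exception. In the run from ZNF653 to ZNF791, 15 of 21 held at least 1. The small run from ZNF554 to ZNF77 held 1 or the other in 4 of 5, and no promoter of any other run held either. Of the 43 members with a word, 17, 11 and 29 were marked, 15 of them in 6T-CEM alone and 9 in no library. Of the 144 without, 65, 52 and 78 were marked, 19 in 6T-CEM alone. Members with a word are nearly all in the runs with many 6T-CEM peaks, so the letters and the place cannot be told apart. Within the first run, 20 members held both words. Of these, 2 were marked in all libraries, 9 in 6T-CEM alone, 5 in no library and 4 in other patterns. Whether the words bear on the mark was not tested.

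**Figure D5:**
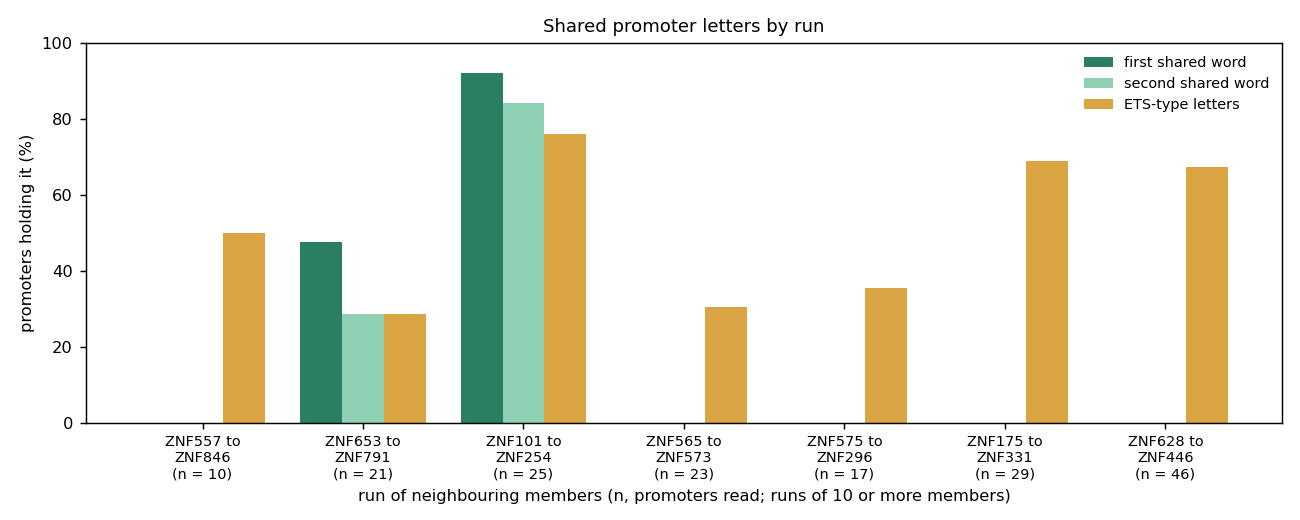
Share of member promoters holding each 9-letter word (y axis, %) in the runs of 10 or more members (x axis, with the number of promoters read). Words appear in ZNF653 to ZNF791 and ZNF101 to ZNF254 and in none of the other large runs.

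The ETS letters were common in member promoters whatever their mark. The letters CCGGAA were in 54.0% of member promoters, against 23.3% of all promoters and 45.6% of those of ZNF genes elsewhere, and in 52.1% of those marked in all libraries, 55.9% of those marked in 6T-CEM alone and 53.2% of those marked in none. CCAAT was in 52.9%, against 36.7% of all and 45.1% of ZNF genes elsewhere, and overlaps GTCCAATCA by its own letters. The GC box letters GGGCGG were in 66.3%, against 59.1% and 60.6%, with 68.8% at members marked in all libraries, 67.6% at those marked in 6T-CEM alone and 54.8% at unmarked ones. TATAAA was in 2.67%, against 9.77% and 4.15%. CpG dinucleotides per 300 bases had a median of 20, against 22 over all promoters. They numbered 22 at members marked in all libraries, 16 at members marked in 6T-CEM alone and 20 at unmarked members. A match to these letters describes the promoter and says nothing of which factor binds it.

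Peaks inside gene bodies were few. Body peaks away from the ends were found in 24, 28 and 43 members (9.76%, 11.4% and 17.5%), against 13.3%, 23.2% and 24.4% of all genes. Members have a median length of 23.2 kb, which was not set beside the length of all genes. Body coverage counts every covered base beyond the end windows, including bases of end peaks that reach in. It was widest at ZNF581, with 2828, 4657 and 4333 bases. ZNF580 lies inside ZNF581, and in 6T-CEM 1 peak at the ends of ZNF580 spanned 4302 bases of this body. ZNF787 had 267, 3066 and 6351 bases. ZNF446 had 804, 3502 and 4717. Both were far below the other lists in Jurkat replicate 1, the shortest list. There neither had a body peak, so their bases came from end peaks. ZNF584 had 1912, 2041 and 2357 body bases, and ZNF792 had 703, 1148 and 2125. The 2125 bases at ZNF792 in 6T-CEM came from an end peak of 3190 bases, with no body peak. ZNF444 had none, 2024 and 3634. ZNF69 had 1461, 695 and 3091 with no peak at its ends, and it overlaps other genes of its cluster. The same 1461 and 695 bases were counted at the ends of ZNF700. In 6T-CEM its body peaks were those at the ends of ZNF700 (683 and 1780 bases) and ZNF763 (628 bases). In all, 21 members had body peaks and no end peak in any library, and 74 had no peak at all. The same split was not counted over all genes, so these counts describe the members only.

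Members with a known role were marked unevenly. Of 16 such genes, picked by hand and not a full list of members with a known role, 3 were marked in all libraries, 5 in 6T-CEM alone, 1 in Jurkat replicate 1 and 6T-CEM, and 7 in none. Over all genes these patterns held 26.2%, 6.47%, 5.57% and 50.3%. ZNF382, a KRAB gene silenced by methylation in several tumours, had 1023, 546 and 1069 covered bases. ZNF671, also methylated in tumours, had 403, 898 and 724. ZNF43 had 317, none and 777. Beside ZNF93, the 6T-CEM group held ZNF224, a partner of WT1, with 907 covered bases. ZNF274, whose protein recruits SETDB1 to the 3′ exons of ZNF genes themselves, had 621. ZNF568, whose mouse counterpart silences a placental Igf2 transcript, had 503. ZNF444, a SCAN domain gene, had 849, all near its far end and none near its start. With lists of equal length, ZNF224 and ZNF93 were still marked in 6T-CEM and ZNF274, ZNF568 and ZNF444 were not. ZNF671 was then still marked in every library, ZNF91 in Jurkat replicate 1 and 6T-CEM, and ZNF382 and ZNF43 in Jurkat replicate 1 alone. ZNF350 (ZBRK1, a BRCA1 partner), ZNF154, ZNF208, ZNF45 and ZNF536, a gene of neuronal differentiation, had no peak near an end or in the body. ZNF331, an imprinted gene, and ZNF420, an inhibitor of p53, had no end peak but had body peaks of 655 and 815 bases in Jurkat replicate 1 and 479 and 1019 bases in 6T-CEM.

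Most genes of the corepressor machinery that KRAB proteins use were marked in each library. Of 20 such genes, 15, 15 and 16 were marked (75%, 75% and 80%), against 37.9%, 34.0% and 41.3% of all genes, and 11 (55%) were marked in all libraries, against 26.2%. TRIM28, itself on chromosome 19, had 1231, 357 and 619 covered bases. CBX3 had 2001, 1823 and 2001, and CBX5 had 1886, 1789 and 1693, both encoding HP1 proteins. DNMT1, the maintenance DNA methyltransferase, had 1396, 1190 and 1101. SETDB1 had 531, 345 and none, so this methyltransferase gene had an end peak in both Jurkat lists and none in 6T-CEM, and no body peak in any list. SUV39H1 had 425, 271 and none near its ends, but its body held 927, 1042 and 828 covered bases. ATF7IP, a partner of SETDB1, had none, none and 684 near its ends, and 879, none and 340 in its body. UHRF1 and MPHOSPH8, a subunit of the HUSH complex, had no end peak in any library. The body of UHRF1 held 3372, 9879 and 10057 covered bases, and that of MPHOSPH8 none, 710 and 889.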

How the data were processed

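The input was 1 H3K27ac peak list for each of 3 libraries, 2 of Jurkat and 1 of 6T-CEM. No IgG sample (3 in the series) entered. Peaks outside the autosomes and chromosome X were left out before any count, and lists of equal length were cut from the peaks kept. The submitters' processing notes name hg38, MACS2 2.2.7 and Bowtie2 2.2.5. The series description names CUT&Tag, while the extract protocol speaks of sonication. Alignment and calling options, and any use of IgG as control, are not given in the sources used here. Each deposited list gives per peak the authors' fold enrichment (a ratio), −log10 p-value and −log10 q-value, a score (10 times −log10 q, rounded down) and the summit's distance from the peak start. Among the peaks kept from the 3 lists, −log10 q went down to 2.01, 2.00 and 2.01. Without read counts, no interval for depth can be given.

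Gene ends came from RefSeq GRCh38.p14, and strand, starts and promoter sequences from the RefSeq promoter table, which matched 216 of 246 members. For 29 of these the listed start lay over 1 kb from the annotated end, and 187 promoters were read. A peak sharing at least 1 base with the 1 kb either side of a gene end was an end peak, and one inside the gene beyond that a body peak. Body bases were all covered bases beyond the end windows, those of end peaks included. The same was counted over 19974 genes. Python 3.11.15, pandas 2.3.3, NumPy 2.4.6 and matplotlib 3.10.9 were used, and the counting was tested on simulated peaks. Alternatives were lists of equal length, a −log10 q of at least 5, windows of 500 b and 2.5 kb, each Jurkat library left out, and other rules for the members. Those without the run from ZNF101 to ZNF254, with starts from any listed promoter, and with the q limit in 6T-CEM only were chosen after seeing the data.

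The members and lists were chosen with earlier results of these data known. Named genes were the 10 with most covered bases in their lowest library, up to 8 each marked in both Jurkat libraries only or in 6T-CEM only, the 3 widest in either Jurkat library alone, the 8 with most body coverage, the ends of the 3 longest unmarked stretches, and members of known role. The corepressor genes and the cell type markers came from lists in the analysis plan, and the corepressor genes given with values are part of theirs. Other members named illustrate a stretch, a list's top fold or a count, and were chosen after their values were seen. A further marker list is not reported here.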

Additional observations from a re-analysis of the deposited data

How the results depend on the processing

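Of 86 values under alternative settings, 76 stayed within 1.5 times the value reported and 10 moved further. The 76 include values of Jurkat replicate 1 at equal list length, which could not move because its list is the shortest and was not cut. With lists cut to 16159 peaks, marked members fell from 71 to 47 in Jurkat replicate 2 and from 130 to 73 in 6T-CEM, and members with body peaks from 28 to 14 and from 43 to 18. Covered bases near member ends in 6T-CEM fell from 101722 to 65984, members marked in all libraries from 52 to 32, and those in 6T-CEM alone from 48 to 25. Leaving out 1 Jurkat replicate gave 61 to 73 members marked in all remaining libraries, 57 to 69 in 6T-CEM alone and, in place of 8, 10 to 19 in Jurkat alone, the higher without Jurkat replicate 2, since a rule over fewer libraries is easier to meet. Allowing 1 Jurkat library to be marked gave 78 in place of 48, and asking for either Jurkat library gave 21 in place of 8. Peaks with a −log10 q of at least 5 left 70, 55 and 110 marked members and 54 in 6T-CEM alone (22.0%, against 7.20% of all genes), of which 39 were among the 48. Leaving out the 43 members whose windows hold another gene's end left 71, 54 and 110 marked of 203. The cause of these shifts was not tested, beyond the shorter lists themselves. No paired analysis was possible because 6T-CEM has 1 H3K27ac library and no result comes from a test. A missing peak may reflect a shallow library as well as absent acetylation, and these lists cannot tell them apart.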
